A study of Mus musculus with 18 samples.

Results

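The 10 genes described here encode chaperones and co-chaperones of the endoplasmic reticulum (ER): Hspa5, Hsp90b1, Hyou1, Calr, Canx, Sdf2l1, Creld2, Dnajb9, Dnajb11 and Dnajc3. They were chosen by gene name, as residents of the ER that help proteins fold or that assist such helpers, and each had a row in all 18 samples of a series that lists 20207 genes. All 10 passed the filter of at least 1 read in every sample, as did 12731 genes in all. The samples were NIH3T3 cells, an established mouse fibroblast line, stably carrying a DD-sfGFP reporter (a destabilizing domain joined to superfolder GFP), sorted for high GFP and kept in the ligand S1 in every group used here. The control group was unstressed (0 min), the HS groups had 45 or 135 min of heat shock, and the Tu groups had 45, 135 or 405 min of tunicamycin, with 3 samples each. No label states that samples of a group came from separate cultures, so p-values measure the spread between these samples, part of which may be technical. All 5 comparisons with the control share its 3 samples.

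Proteins that enter the secretory pathway fold in the ER lumen, where an Hsp70 (Hspa5, also called BiP), an Hsp90 (Hsp90b1, Grp94) and a lectin chaperone system (Canx and Calr) hold unfinished chains. Tunicamycin blocks the first step of N-linked glycosylation, so that glycoproteins misfold in the ER, and the sensors Ire1, Perk and Atf6 then start the ER unfolded protein response (erUPR). Heat shock acts mainly on cytosolic and nuclear proteins through the heat shock response (HSR) and Hsf1. The ER stress response element, ERSE, is the promoter sequence through which Atf6 and Xbp1, together with NF-Y, are known to act on ER chaperone genes.

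RefSeq promoter windows (300 bases on GRCm38.p6, from 250 before to 50 after the start site) were available for 9 of the 10 genes, Hyou1 being the exception. These positions are on another build than the mm9 positions of the genes themselves. An ERSE was searched for as its 2 short parts, a CCAAT box and a CCACG core on the same strand with exactly 9 bases between them, on either strand of the window. It lay in 6 of the 9 windows and in 0.119% of the 32851 mouse windows. Hsp90b1 held 2 copies, on opposite strands. The matches are shown, each read 5′ to 3′ on the motif's strand, because most of these promoters and few of all windows hold one:
Hspa5 ERSE, chr2:34772025-34772043: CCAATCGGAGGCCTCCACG
Hsp90b1 ERSE, chr10:86705638-86705656: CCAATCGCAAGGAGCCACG
Hsp90b1 ERSE, chr10:86705533-86705551: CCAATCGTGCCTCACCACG
Calr ERSE, chr8:84847075-84847093: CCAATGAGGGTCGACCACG
Canx ERSE, chr11:50325800-50325818: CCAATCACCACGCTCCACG
Creld2 ERSE, chr15:88819520-88819538: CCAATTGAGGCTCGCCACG
Dnajc3 ERSE, chr14:118937827-118937845: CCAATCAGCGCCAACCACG

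The core CCACG on its own occurred in 32.8% of all windows and in each of the 9. Sdf2l1, Dnajb9 and Dnajb11 had no ERSE match, and all 3 rose in tunicamycin in the values below. The 250 bases before the start site are shown for 4 genes, read on the strand of the gene with the ERSE in capitals: Hspa5 as the best known target, Creld2 and Sdf2l1 as the pair with the largest rise in tunicamycin, and Canx, which carries an ERSE and was not called.
Hspa5 promoter, chr2:34771840-34772089, forward strand: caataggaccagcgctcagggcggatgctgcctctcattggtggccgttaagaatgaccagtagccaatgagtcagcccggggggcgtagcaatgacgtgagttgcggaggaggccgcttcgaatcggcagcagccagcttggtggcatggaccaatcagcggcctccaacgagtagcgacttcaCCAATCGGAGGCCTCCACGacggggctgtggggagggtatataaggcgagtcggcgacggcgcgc
Creld2 promoter, chr15:88819396-88819645, forward strand: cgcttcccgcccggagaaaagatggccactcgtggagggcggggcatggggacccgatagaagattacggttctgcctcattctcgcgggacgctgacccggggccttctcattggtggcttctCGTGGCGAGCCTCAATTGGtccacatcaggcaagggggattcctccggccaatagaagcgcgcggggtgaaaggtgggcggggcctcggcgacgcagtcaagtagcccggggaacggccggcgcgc
Sdf2l1 promoter, chr16:17132384-17132633, reverse strand: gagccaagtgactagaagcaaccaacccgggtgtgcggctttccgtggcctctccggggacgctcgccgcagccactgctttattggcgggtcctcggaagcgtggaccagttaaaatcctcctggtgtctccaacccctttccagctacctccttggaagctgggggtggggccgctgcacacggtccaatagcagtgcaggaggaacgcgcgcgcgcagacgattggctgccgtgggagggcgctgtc
Canx promoter, chr11:50325674-50325923, reverse strand: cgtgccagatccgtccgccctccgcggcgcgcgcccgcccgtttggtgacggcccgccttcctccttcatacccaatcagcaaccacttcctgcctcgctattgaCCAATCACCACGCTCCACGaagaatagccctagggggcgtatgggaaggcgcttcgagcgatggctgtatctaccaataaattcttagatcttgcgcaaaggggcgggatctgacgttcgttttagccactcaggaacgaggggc

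The CCAAT box on its own also occurred in each of the 9 windows, and in 37.4% of all windows. The unfolded protein response element TGACGTGG, present in 0.676% of all windows, and the CHOP-ATF response element as TGATGNAA (3.97%) were not found in the 9 windows on either strand. ERSE-II and the heat shock element were also searched for and are not reported here, because no source used here gives their letters. A missing match says only that these letters are not in the window, and a match is not evidence of binding.

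**Figure D1:**
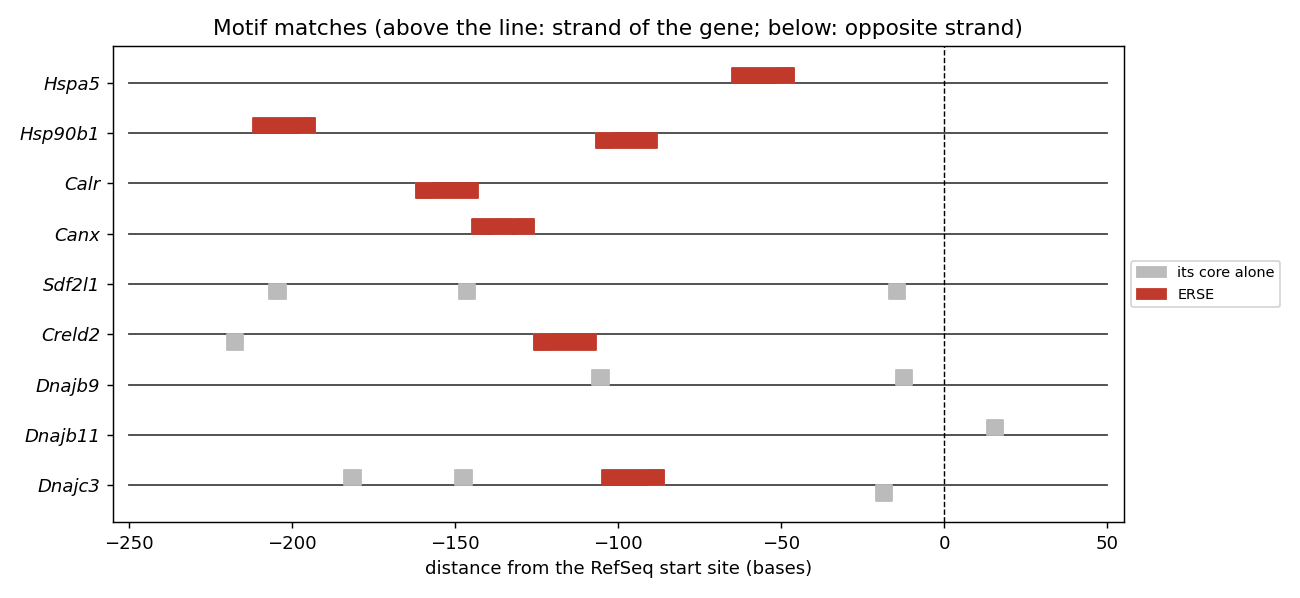
Positions of motif matches in the promoter windows of the 9 genes with a RefSeq entry, against distance from the start site in bases, with boxes above the line for the strand of the gene and below it for the opposite strand. The ERSE matches lie between 212 and 47 bases before the start in 6 genes, and grey boxes are further copies of the CCACG core alone.

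In unstressed cells the levels of the 10 genes, in RPKM (reads scaled to gene length and to the total of the library, a level per length), ran from 678 ± 148 for Calr (SD, n = 3, as for all levels below) to 1.18 ± 0.677 for Dnajb9. Below Calr came Hspa5 at 233 ± 21.4, Hsp90b1 at 160 ± 83.0 and Canx at 88.5 ± 27.9 RPKM. The samples of Hspa5 and Hsp90b1 overlapped, as did those of Hsp90b1 and Canx. Creld2 (42.2 ± 2.60) and Hyou1 (34.3 ± 1.76) followed without overlap, then Dnajb11 (20.9 ± 6.22) and Sdf2l1 (20.1 ± 2.95), which overlapped. Dnajc3 stood at 7.01 ± 1.53 RPKM. The DnaJ co-chaperones, which deliver clients to Hspa5 and set off its ATP hydrolysis, were thus 3 of the 4 lowest.

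Total counts ran from 33415592 to 66478268 reads per sample, so that 3 reads, the limit a count of 0 allows, correspond to 0.0451 to 0.0898 CPM (counting error only). The first control stood apart from the other two controls in some of these genes: by a log2 difference of −1.76 in Dnajb9, −1.57 in Hsp90b1 and −0.81 in Canx, but by −0.11 in Hspa5, −0.05 in Creld2 and −0.04 in Hyou1. Over 12443 genes its difference from the other controls followed transcript GC content (Spearman's rho 0.519, against 0.0161 between the other two), and libraries of the HS and Tu groups differed among themselves in the same way, with rho from −0.661 to 0.684. Dnajb9, with the lowest transcript GC content of the 10 (38.3%), had 38, 208 and 129 reads in the 3 controls. Of the markers of the labelled cell type, Col1a1, Col1a2, Vim and Fn1 were high in every library (at least 480 RPKM). Thy1 lay at 105 to 193 RPKM and Pdgfrb at 10.2 to 71.9 RPKM, whereas Lum stayed at or under 0.804 RPKM. S100a4 ran from 61.4 to 3215 RPKM and varied within groups, with 577, 87.6 and 2783 RPKM in the HS 45 min samples. Markers of blood, endothelial, epithelial, muscle and fat cells were at or near 0 (Ptprc at most 0.00532, Epcam 0.0217, Pecam1 0.0565, Myod1 0.0259 and Adipoq 0.0363 RPKM), apart from Cd68 at 3.72 to 7.61 RPKM.

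**Figure D2:**
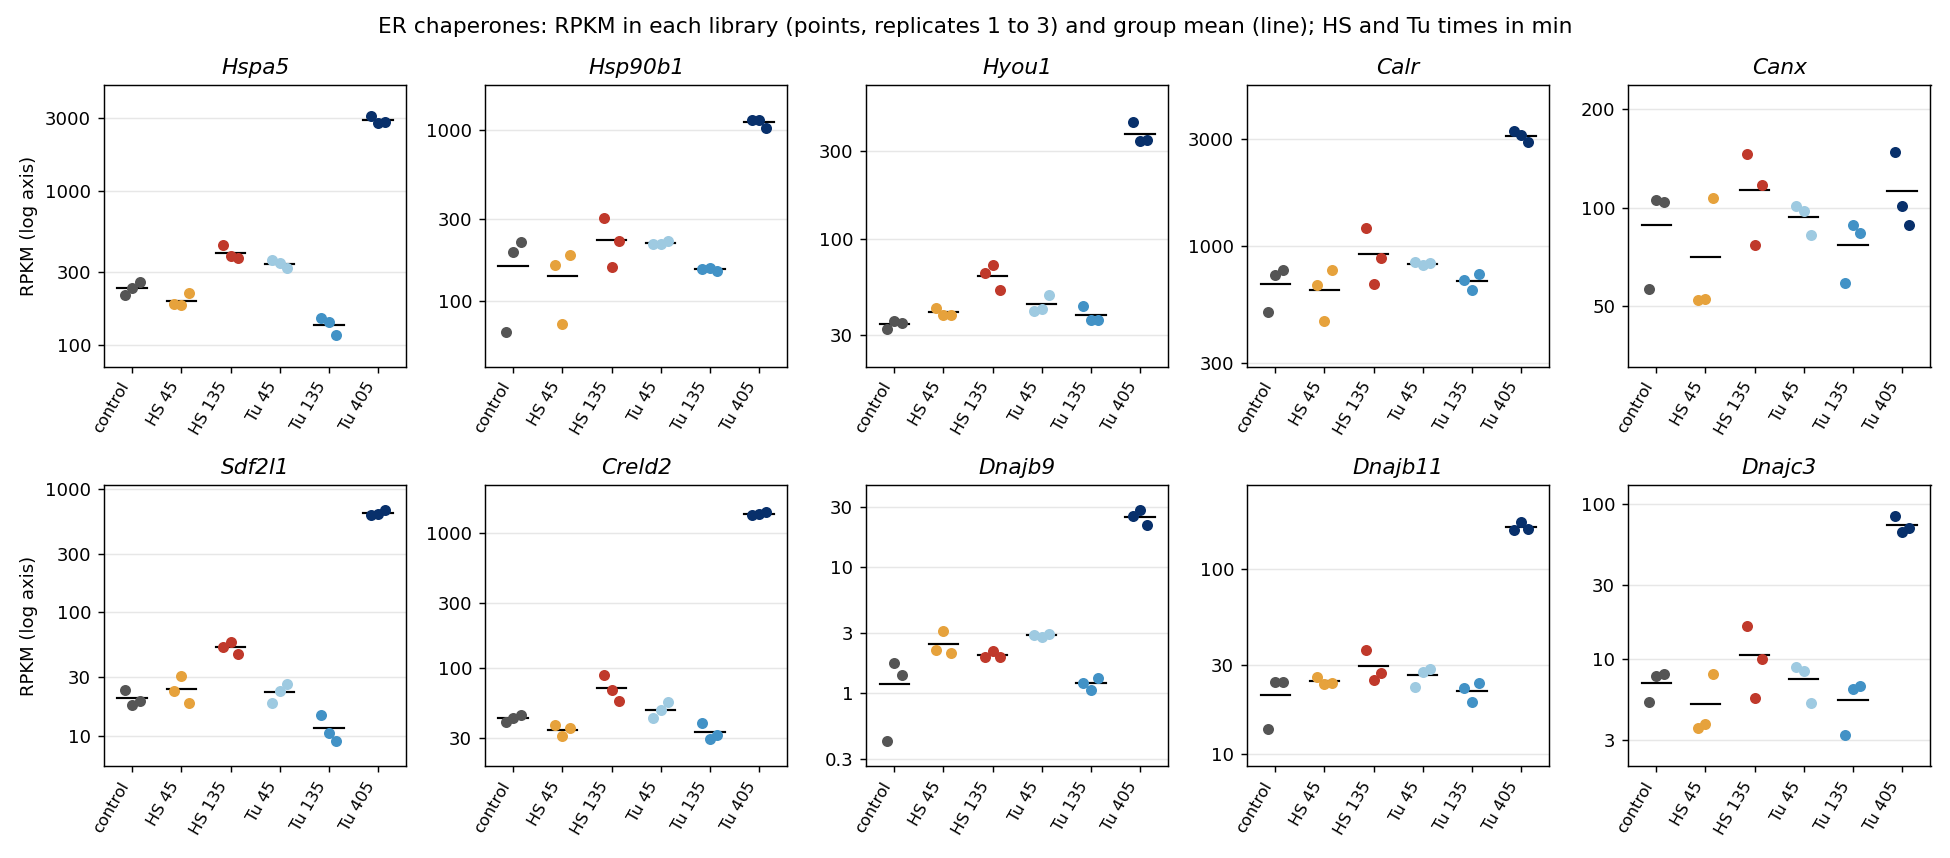
RPKM of each of the 10 genes in each library (points, log axis, 3 replicates side by side) with the mean of the group (line), for the control, HS and Tu groups in min. At 405 min of Tu all genes except Canx lie far above every other group, and the low first control is seen in Hsp90b1, Dnajb9, Dnajb11 and Canx.

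At 405 min of tunicamycin 9 of the 10 ER chaperone genes were induced and Canx was not called. Of all 12731 genes 23.3% were called higher and 23.5% lower (adjusted p under 0.05 by edgeR's quasi-likelihood test and the Benjamini-Hochberg method, as for all calls here). The log2 fold changes of the 10 genes had a median of 3.51, against −0.01 over all genes tested, and the 9 called ranked between 12 and 151 among the 12731. The genes together took 0.271% to 0.429% of all counted reads in the controls and 2.54% to 2.79% at 405 min. These 9 calls were kept under every alternative tried.

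Hspa5 (chr2:34627610-34632049 on mm9), the Hsp70 of the ER, which also binds the stress sensors, had 212, 233 and 255 RPKM in the controls and 3091, 2780 and 2836 RPKM at 405 min of Tu. It was 13.2-fold higher, with a 95% confidence interval from 10.4 to 16.9 (log2 fold change 3.73, standard error 0.154, edgeR adjusted p = 4.64e-06). All 3 Tu samples were above all controls by more than the whole spread of either group. Hyou1 (chr9:44187573-44200451), a large relative of Hsp70 that exchanges the nucleotide of Hspa5, had 32.3, 35.6 and 35.05 RPKM in the controls and 432, 343 and 347 RPKM at 405 min. Its rise was 11.6-fold (9.18 to 14.6, adjusted p = 4.64e-06).

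Hsp90b1 (chr10:86153586-86168189), the Hsp90 of the ER, with integrins and Toll-like receptors among its clients, had 65.8, 194 and 222 RPKM in the controls and 1148, 1146 and 1026 RPKM at 405 min. Its rise was 7.44-fold, with the wide interval of 4.03 to 13.7 (log2 fold change 2.90, standard error 0.385, edgeR adjusted p = 0.000639). The spread lay in the controls, of which the first was low, and the groups did not overlap. Leaving out 1 library at a time gave log2 fold changes between 2.54 and 3.16.

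The DnaJ proteins differ in where they steer Hspa5: Dnajb11 (ERdj3) to nascent and secreted clients, Dnajb9 (ERdj4) to clients bound for degradation and to the sensor Ire1, and Dnajc3 (P58IPK), first known as an inhibitor of eIF2α kinases, to misfolded chains. Dnajb9 (chr12:45306884-45311055) had 0.419, 1.72 and 1.39 RPKM in the controls and 25.0, 27.9 and 21.3 RPKM at 405 min. It was 22.4-fold higher (11.5 to 43.5, adjusted p = 0.000122) and yet remained the lowest of the 10 genes. Dnajc3 (chr14:119337154-119380924) had 5.26, 7.78 and 8.002 RPKM in the controls and 83.9, 66.3 and 70.1 RPKM at 405 min, an 11.2-fold rise (8.42 to 14.8, adjusted p = 1.13e-05). Dnajb11 (chr16:22857939-22879707) had 13.7, 24.4 and 24.5 RPKM in the controls and 163, 178 and 163 RPKM at 405 min, an 8.63-fold rise (6.11 to 12.2, adjusted p = 3.50e-05). No sample of the Tu group overlapped the controls in any of the 3 genes.

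Creld2 and Sdf2l1 had the largest rises of the 10 genes. Creld2 (chr15:88650076-88657111), a disulfide isomerase-like protein with EGF-like repeats that is secreted under stress, had 39.4, 42.5 and 44.6 RPKM in the controls and 1346, 1382 and 1419 RPKM at 405 min. This was a 34.9-fold rise (27.6 to 44.2, log2 fold change 5.13, standard error 0.149, edgeR adjusted p = 1.18e-06), with tightly grouped samples on either side. Sdf2l1 (chr16:17130231-17132476), a partner of Dnajb11 that keeps misfolded chains from aggregating, had 23.4, 17.8 and 19.2 RPKM in the controls and 613, 630 and 681 RPKM at 405 min, a 33.7-fold rise (24.9 to 45.8, adjusted p = 3.06e-06). The 2 intervals overlap almost entirely. Creld2 moved from the fifth highest level of the 10 genes to the third, above Hsp90b1, and Sdf2l1 from the eighth to the fifth.

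The lectin chaperones Calr and Canx bind the same sugar on newly made glycoproteins, Calr as a soluble protein and Canx as a membrane protein, and they differed in response. Calr (chr8:87365987-87370830) had 509, 742 and 784 RPKM in the controls and 3270, 3123 and 2909 RPKM at 405 min, a 4.88-fold rise (3.66 to 6.51, adjusted p = 6.05e-05), the smallest of the 9. Canx (chr11:50107459-50139175) had 56.2, 105 and 104 RPKM in the controls and 148, 101 and 88.3 RPKM at 405 min. These groups overlapped, and the 1.36-fold difference was not called (0.909 to 2.02, log2 fold change 0.44, standard error 0.252, edgeR adjusted p = 0.184). The interval does not exclude a rise of up to 2.02-fold, and the difference passed the threshold when an offset for GC content was added (log2 fold change 0.62, adjusted p = 0.0179). Within each library, where both genes share the same depth, Calr stood at 9.05, 7.04 and 7.55 times the level of Canx per length in the controls and at 22.1, 30.9 and 32.95 times at 405 min. In the other stressed groups this ratio lay between 7.20 and 12.8.

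The order of levels at 405 min was led by Calr (3101 ± 182 RPKM) and Hspa5 (2902 ± 166 RPKM), whose samples overlapped. No other neighbours in the order overlapped: Creld2 1382 ± 36.5, Hsp90b1 1107 ± 69.9, Sdf2l1 641 ± 35.2, Hyou1 374 ± 50.1, Dnajb11 168 ± 8.60, Canx 113 ± 31.5, Dnajc3 73.4 ± 9.25 and Dnajb9 24.8 ± 3.30 RPKM. Canx thus moved from the fourth place to the eighth with no called change of its own. Per length, Hspa5 had 0.117 to 0.130 times the level of Hspa8, the main cytosolic Hsp70, in the controls, and 4.69 to 5.04 times at 405 min, when Hspa8 itself was lower.

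**Figure D3:**
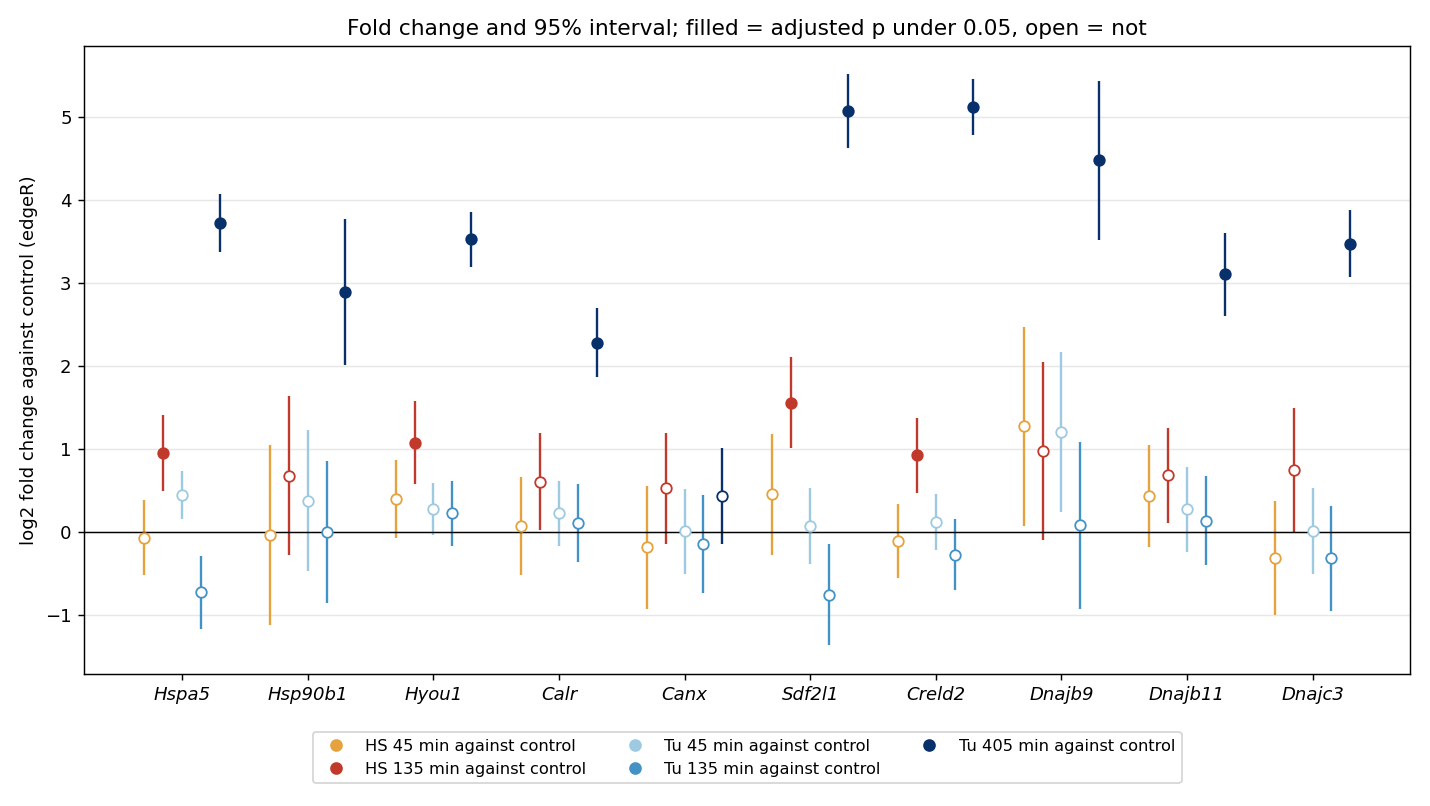
edgeR log2 fold changes of the 10 genes against control (points) with 95% confidence intervals (bars) for 5 comparisons that share the control samples, filled where the adjusted p was under 0.05. At 405 min of Tu 9 genes lie between 2.29 and 5.13 and Canx at 0.44, and the only other filled points are Hspa5, Hyou1, Sdf2l1 and Creld2 at 135 min of HS.

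The earlier times of tunicamycin gave no called member. At 45 min 4.01% of all genes were called higher and 2.17% lower, and edgeR called 0 of the 10. An unadjusted edgeR p under 0.05 was seen in 2 members and in 3260 of all genes. The DESeq2 Wald test called 2 members higher, where 972 of 12482 genes were higher and 871 lower. Those 2 members were Hspa5 and Dnajb9 in either test. Hspa5 had 354, 340 and 316 RPKM at 45 min, above every control, with a log2 difference of 0.45 (standard error 0.123, edgeR adjusted p = 0.0709). Dnajb9 had 2.88, 2.76 and 2.94 RPKM, also above every control, with a log2 difference of 1.21 (standard error 0.414, adjusted p = 0.121). Without the first control both passed the threshold, at 0.41 (adjusted p = 0.0355) and 0.82 (adjusted p = 0.0211), while the calls over all genes went from 510 to 1391 higher and from 276 to 1108 lower. The other 8 genes had log2 differences between 0.01 and 0.38, the largest being Hsp90b1. The Calr and Hyou1 samples also lay above every control without passing the test. How many of all genes separate in this way was not counted, in this or any other comparison.

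At 135 min of tunicamycin 0.126% of all genes were called higher and 0.00785% lower, and again 0 of the 10 were called by edgeR. An unadjusted edgeR p under 0.05 was seen in 2 members and in 2369 of all genes. DESeq2 called 1 member lower, Hspa5, where 321 of 11741 genes were lower and 318 higher. The values of Hspa5 were 148, 141 and 115 RPKM, below every control and every sample at 45 min, with a log2 difference from control of −0.72 (standard error 0.190, edgeR adjusted p = 0.135). Sdf2l1, at 14.7, 10.5 and 8.995 RPKM, likewise lay below every control (−0.75, adjusted p = 0.203). Creld2 lay below every control too (−0.27, adjusted p = 0.469), whereas Hyou1 lay above (0.23, adjusted p = 0.5004). The remaining 6 genes differed from control by −0.31 to 0.14. How many of all genes lay wholly above or below the controls was not counted. The median of the 10 was −0.07, and that of all genes tested was 0.00.

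Set directly against 45 min, all 10 genes had lower fitted values at 135 min, with log2 differences from −1.17 to −0.05 and a median of −0.35, where the median of all genes was −0.02. None of them passed the edgeR threshold (0 called), in a comparison in which 0.118% of all genes were called higher and 0.173% lower. An unadjusted edgeR p under 0.05 was seen in 4 members and in 2010 of all genes. DESeq2 called 2 members lower, where 294 of 11742 genes were lower and 328 higher. Hspa5 came nearest, at −1.17 (95% interval −1.56 to −0.79, adjusted p = 0.0521), followed by Dnajb9 at −1.13 (−1.54 to −0.71, adjusted p = 0.0691). In both genes the samples of the 2 times did not overlap. Leaving out the first Tu 135 min sample brought Hspa5 (−1.29, adjusted p = 0.0112), Dnajb9 (−1.18, adjusted p = 0.0313) and Sdf2l1 (−1.10, adjusted p = 0.0499) past the threshold, where 111 of all genes were called lower in place of 22. Hyou1 and Canx changed sign in 3 and 2 of the 14 alternatives.

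From 135 to 405 min of tunicamycin 9 of the 10 were induced, in a comparison that called 21.4% of all genes higher and 22.4% lower. Sdf2l1 had a log2 difference of 5.80 (55.6-fold, 35.3 to 87.4), the largest rise of all 12731 genes. Creld2 rose by 5.36, Hspa5 by 4.42 and Dnajb9 by 4.38 on the log2 scale. Canx differed by 0.55 (0.07 to 1.03, adjusted p = 0.0629), a rise that DESeq2 called (adjusted p = 0.0426), as edgeR did without the first Tu 135 min sample (0.44, adjusted p = 0.0462, in a fit that called 4094 of all genes higher in place of 2720).

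Heat shock gave smaller differences. At 135 min 4 of the 10 genes were induced, where 4.75% of all genes were called higher and 2.64% lower, and all 10 had positive log2 fold changes, with a median of 0.84 against −0.02 over all genes. Sdf2l1 had 52.6, 57.4 and 46.0 RPKM, all above the controls, a 2.96-fold rise (2.02 to 4.33, log2 fold change 1.56, standard error 0.238, edgeR adjusted p = 0.0185). Hyou1 had 65.1, 71.9 and 52.7 RPKM, a 2.12-fold rise (1.49 to 3.004, adjusted p = 0.0292). These genes, like the next 2, did not overlap the controls. Hspa5 had 446, 376 and 370 RPKM, a 1.94-fold rise (1.42 to 2.66, adjusted p = 0.0312). Creld2 had 87.4, 68.4 and 56.7 RPKM, a 1.90-fold rise (1.39 to 2.61, adjusted p = 0.0339).

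The number of calls at 135 min of HS varied with the library left out. Without the first HS 135 min sample 4 members were called (1535 of all genes higher) and without the second 5 (727 of all). Without the first control only Sdf2l1 was called, with 350 of all genes higher. Without the second control, the third control or the third HS 135 min sample none was (adjusted p from 0.107 to 0.176 for the 4 genes). Of all genes 12, 10 and 11 were then called higher in place of 605. The log2 fold changes themselves stayed between 0.72 and 1.72 for these 4 genes over the 14 alternatives. The 6 genes not called lay between 0.53 (Canx) and 0.98 (Dnajb9), with adjusted p from 0.115 to 0.295. Of these, Dnajb9 and Dnajb11 lay above every control, and Hsp90b1, Calr, Canx and Dnajc3 overlapped them. The first HS sample was the highest of the 3 in those 4 genes and the second the lowest, as in Calr with 1198, 675 and 887 RPKM and in Dnajc3 with 16.3, 5.62 and 10.1 RPKM. These are also the HS 135 min libraries whose deviations from the group followed GC content most, with rho of −0.661 and 0.684 over genes, and with the GC offset 7 of the 10 were called, when the calls over all genes went from 605 to 1260 higher and from 336 to 1257 lower.

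At 45 min of HS edgeR called 0 of the 10, and 0% of all genes were called higher and 0% lower. The 10 cytosolic and mitochondrial chaperones listed below had 0 calls too, with log2 fold changes of up to 4.99. A missing call at this time is thus not evidence of no change. An unadjusted edgeR p under 0.05 was seen in 1 member and in 2480 of all genes. DESeq2 called 0 members, where 386 of 12122 genes were higher and 65 lower. The log2 differences of the members had a median of 0.02 and ran from −0.31 (Dnajc3) to 1.28 (Dnajb9). Dnajb9, at 2.17, 3.11 and 2.08 RPKM, and Hyou1, at 42.4, 38.7 and 38.4 RPKM, lay above every control (adjusted p = 0.246 and 0.276). Creld2, at 37.4, 31.2 and 35.4 RPKM, lay below (adjusted p = 0.745). Leaving out the third HS 45 min sample brought Hyou1, Sdf2l1 and Dnajb9 past the threshold as higher (0.53, 0.69 and 1.46) and Dnajc3 as lower (−0.63), in a fit that called 2737 of all genes higher and 3049 lower. From 45 to 135 min of HS 0% of all genes were called in either direction and 0 members by edgeR. An unadjusted edgeR p under 0.05 was seen in 5 members and in 1481 of all genes. DESeq2 called 2 members higher, where 194 of 12480 genes were higher and 209 lower. Hspa5, Hyou1, Sdf2l1 and Creld2 lay higher at 135 min in every sample, by 0.97, 0.63, 1.05 and 0.98 on the log2 scale. How many of all genes separate in these ways was not counted.

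The stresses were also compared at matched times. At 45 min edgeR called 0 of the 10 between HS and Tu, and of all genes 0.0628% were called higher and 0.141% lower in HS. An unadjusted edgeR p under 0.05 was seen in 1 member and in 3061 of all genes. DESeq2 called 0 members, where 748 of 12444 genes were higher and 379 lower in HS. Hspa5 had the largest difference, −0.50 (standard error 0.151, adjusted p = 0.151), with every HS sample below every Tu sample. At 135 min 2 of the 10 were higher in HS than in Tu, where 1.3% of all genes were called higher and 0.817% lower. Sdf2l1 differed by 2.30 (4.94-fold, 3.06 to 7.97, adjusted p = 0.0224) and Hspa5 by 1.67 (3.18-fold, 2.25 to 4.48, adjusted p = 0.0218). Both calls were lost without the third HS 135 min sample or any 1 of the Tu 135 min samples (adjusted p from 0.0604 to 0.183). Those fits called 0 to 2 of all genes higher, in place of 166. Creld2 just missed the threshold (1.19, adjusted p = 0.0507), and the other 7 had positive differences from 0.49 to 1.06.

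The other genes of the ER folding pathway at 405 min of Tu were read from lists set by function. Of all 12731 genes 23.3% were called higher and 23.5% lower in this comparison. Of 12 disulfide isomerases and oxidases, which form and shuffle disulfide bonds, 10 were higher and none lower, from Pdia4 (log2 fold change 3.64) to Tmx1 (−0.17, not called). Of 15 further ER folding helpers 11 were higher and 1 lower. They ranged from Manf (4.38), a secreted stress factor, to Uggt2 (−0.54), a relative of Uggt1, which adds glucose back to glycoproteins that have not folded. Of 14 genes of ER-associated degradation 10 were higher and none lower, led by Herpud1 (4.76). All 9 tested sensors and factors of the erUPR were higher, from Ddit3 (5.22), which encodes CHOP, to Atf6b (0.48). The median log2 fold changes of the lists were 1.83, 0.95, 1.28 and 1.61, against 3.51 for the ER chaperones. This order was not tested.

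At 45 min of Tu 5 of the 9 sensors and factors were already higher (Ddit3, 2.92, and Trib3, 2.53, most), against 4.01% of all genes. Of the ER chaperones and disulfide genes only Ero1l, which reoxidizes the isomerases, was called (0.93, edgeR adjusted p = 0.0350). Of 14 degradation genes 1 was higher, and of 15 folding helpers 0. At 135 min of HS 3 of 9 sensors and factors, 2 of 14 degradation genes, 2 of 15 folding helpers and none of 12 disulfide genes were higher. Of all genes 4.75% were. The helpers were Creld1 (2.26), the membrane-bound relative of Creld2, and Manf (1.39).

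Of the cytosolic and mitochondrial counterparts of the ER chaperones, most moved the other way at 405 min of tunicamycin, but not the mitochondrial Trap1. At 405 min none of 10 was higher and 7 were lower, from Hspa8 (−1.56, adjusted p = 0.000111) to Dnaja1 (−0.75, adjusted p = 0.00828). Of all genes 23.3% were called higher and 23.5% lower. Hsp90aa1, the inducible cytosolic Hsp90, was lower by a log2 difference of −1.10 (adjusted p = 0.00240) where Hsp90b1 rose by 2.90. At 135 min of HS 6 of the 10 were higher, against 4.75% of all genes, with Hspa1b at 7.24, Hsph1 at 3.33 and Dnajb1 at 2.35 on the log2 scale. Hspa1a and Hspa1b are nearly identical, so that reads cannot be assigned to 1 of them with certainty. Trap1, the mitochondrial Hsp90, passed the test in neither (0.23 at 405 min of Tu and −0.04 at 135 min of HS).

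**Figure D4:**
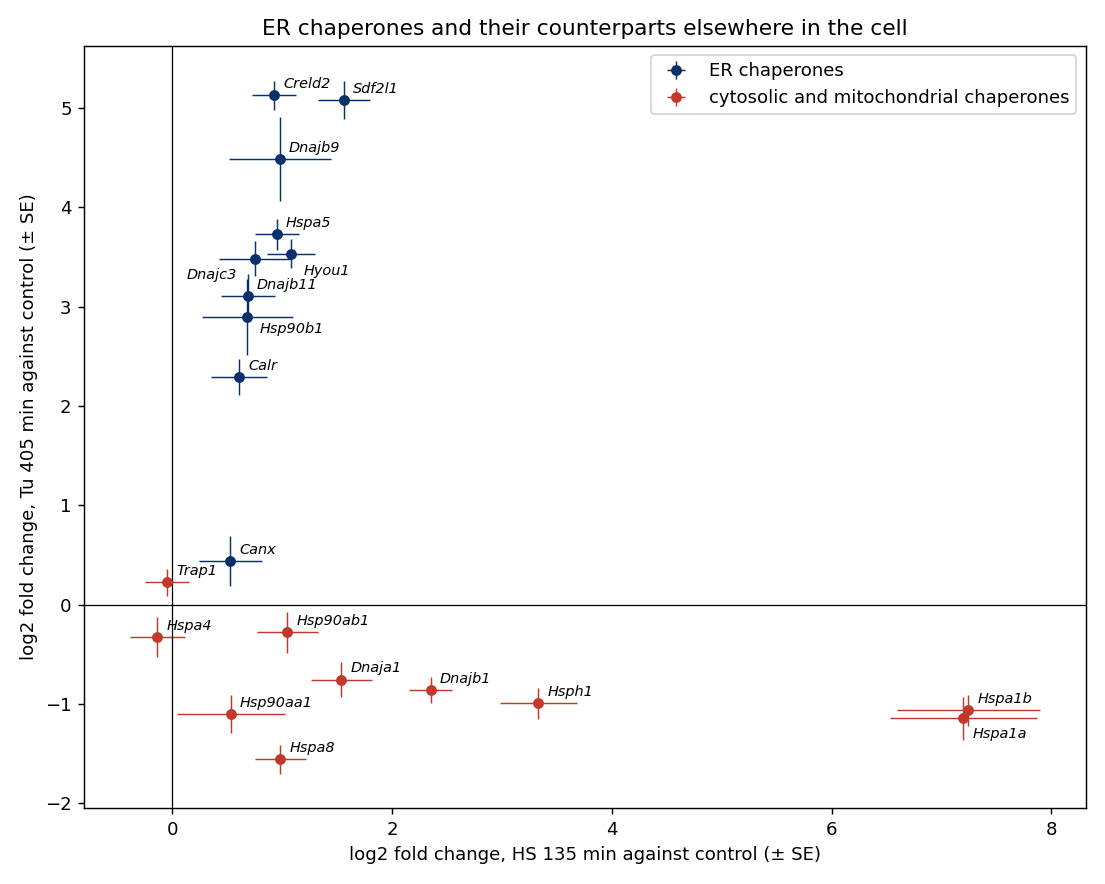
edgeR log2 fold changes against control at 135 min of HS (horizontal axis) and 405 min of Tu (vertical axis) for 10 ER chaperone genes and 10 cytosolic or mitochondrial counterparts, with standard errors as bars. The ER chaperones lie at 0.53 to 1.56 in HS and up to 5.13 in Tu, and the counterparts at up to 7.24 in HS and at or under 0.23 in Tu.

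The summed level of the 8 fibroblast markers was lower beside these changes, from 9042 to 9520 RPKM in the controls to 4285 to 4768 RPKM at 405 min. Of the 8 markers 6 were called lower, where 23.5% of all genes were called lower and 23.3% higher. All samples were of the same cell line. Whether fewer of its cells expressed these genes or each cell held less of their RNA cannot be told apart in such bulk samples. The summed markers of other cell types lay at 5.08 to 7.06 RPKM in the controls and 5.39 to 6.01 RPKM at 405 min, and 1 of the 4 that could be tested was higher (Des, at most 0.390 RPKM). Their part in the rise of the ER chaperones was not tested.

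Across the 18 samples each of the 10 genes except Canx followed the mean of the other 9 (log2 CPM, Pearson's r from 0.925 to 0.986), while Canx had r = 0.503. These correlations describe 6 groups of 3 libraries and are set largely by the 405 min samples. Of 8269 other genes with a mean of at least 10 CPM, those most like the mean of the 10 genes were Pdia6 (r = 0.992), Manf (0.989), Ccdc134 (0.986), Bcat1 (0.983), Sel1l (0.977), Pdia4 (0.977), Derl1 (0.9747), Wars (0.972), Psph (0.967) and Avil (0.966).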

How the data were processed

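The members and gene lists were chosen with earlier results of these data known. The authors aligned reads to mm9 and counted them against RefSeq genes on the DNAnexus platform, and the aligner is not given in the sources used here. The deposited main value is an estimated count of the reads on each gene, as the authors left it without normalization (of the values above 0 and under 1000, 17.7% to 23.2% per library were not exact whole numbers). They also deposited RPKM values, made by the authors from count, gene length and library total. The deposited score (RPKM minus the library mean, over the SD) and the deposited signal (RPKM over its root mean square) were not tested. Which library kit was used for which sample is not given in the sources used here.

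Estimated counts were rounded and, for each comparison, 3 against 3 samples were fitted with edgeR 4.0.16 (R 4.3.3), TMM normalization and the quasi-likelihood test over 12731 genes with at least 1 read in every sample. Adjusted p under 0.05 was called. The SE is the log2 fold change, without its sign, over the square root of F. Levels are RPKM. The genes named are the 10 members and, per list, the extremes and calls. The 10 genes most like the members were ranked by correlation. Alternatives were DESeq2 1.42.0 (Wald test and size factors), total counts, a shared fit of 6 groups, the replicate number as a block, a GC offset (lowess, span 0.3, with GC for 97.7% of tested genes), both together, no filter, and leaving out each library. Only for Tu 135 min against control did the deviations correlate positively in every numbered pair (0.298, 0.255 and 0.212), and the block changed no member call there. Replicates differed by more than counting noise (chi-square per degree of freedom of at least 15.5), so none was counted as the same library.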

Additional observations from a re-analysis of the deposited data

Results flagged for a closer look

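The effect of tunicamycin differed between 135 and 405 min in 9 of the 10 genes, by the direct edgeR comparison of the times. Of all genes 21.4% were called higher and 22.4% lower in that comparison. The log2 differences were 5.80 for Sdf2l1, 5.36 for Creld2, 4.42 for Hspa5, 4.38 for Dnajb9, 3.77 for Dnajc3, 3.27 for Hyou1, 2.94 for Dnajb11, 2.86 for Hsp90b1 and 2.15 for Calr. All 3 samples at 405 min lay above all 3 at 135 min in each of them. Groups of 3 samples were too small for the search for single outlying samples.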

How the results depend on the processing

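Of 1400 values of single genes under an alternative, 1302 kept their direction and side of the threshold, 65 newly passed it, 33 no longer did and none that was called changed sign. The 9 genes higher at 405 min of Tu were called in every fit, where 2008 to 4017 of all genes were higher. Canx joined them with the GC offset, alone or with the replicate block. The numbers in brackets below are calls over all genes in the same direction and fit. For HS 45 min against control, higher calls went from 0 to 1 in the shared fit (925). Leaving out a library gave 0 to 3 higher (0 to 2737) and 0 to 1 lower (0 to 3049). For HS 135 min against control, the 4 calls (605) became 0 with the replicate block (0) and 6 with the block and the GC offset together (474). They became 7 with the GC offset alone (1260), 6 in the shared fit (1829) and 3 with total counts (498). Leaving out a library gave 0 to 5 (10 to 1535). For Tu 45 min against control, 0 (510) became 1 with total counts (878), 2 with DESeq2 (972) and 2 with the GC offset (1102). Leaving out a library gave 0 to 2 (55 to 1391). For Tu 135 min against control, lower calls went from 0 (1) to 1 with DESeq2 (321), the shared fit (178) or the GC offset (130). For Tu 135 min against Tu 45 min, lower calls went from 0 (22) to 2 with total counts (37), DESeq2 (294) or the GC offset (175). They went to 1 in the shared fit (65) or with no filter (26), and to 0 to 3 on leaving out a library (0 to 111). For HS 135 min against HS 45 min, higher calls went from 0 (0) to 2 with DESeq2 (194), 4 in the shared fit (459) and 1 with the GC offset (91). For HS 45 min against Tu 45 min, lower calls went from 0 (18) to 1 in the shared fit (551). Leaving out a library gave 0 to 3 lower (0 to 3671) and 0 to 1 higher (0 to 3416). For HS 135 min against Tu 135 min, 2 (166) became 5 with DESeq2 (715) or the shared fit (998), and 6 with the GC offset (773). They became 3 with total counts (209) or no filter (193), and 0 with the replicate block (0), with or without the GC offset. Leaving out a library gave 0 to 2 (0 to 273). The cause was not tested. Outside Tu 135 min against control, the 3 numbered pairs did not all deviate together (mean correlation −0.517 to 0.183, lowest pair −0.776 to −0.103). Single pairs did, as in HS 135 min against HS 45 min, with −0.621, 0.750 and 0.421. No pairing by number was shown there, so a call lost under the block need not be a weaker effect. The offset also removes true differences that follow GC content. Depth limits Dnajb9 most, with 38 reads in the first control.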
